A study of Mus musculus with 28 samples.

Results

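The potassium channel genes analysed here were the 62 genes of the deposited count table whose symbol starts with Kcn and whose mean level over 28 libraries was at least 1 CPM (counts per 1e6 counts of the library). The table held 25900 gene identifiers, and 94 of them had a name starting with Kcn. By name, 12 genes were left out (Kcnc1, Kcnc2, Kcns3, Kcnd2, Kcnd3, Kcnip1 to Kcnip4, Kcnj8, Kcnj10 and Kcne2), and 20 others lay under the limit. The members just inside the limit were Kcnj14 at 1.59, Kcne4 at 1.68 and Kcne1l at 2.22 CPM, and the genes just outside it were Kcnk5 at 0.648, Kcnmb1 at 0.646 and Kcnj13 at 0.636 CPM.

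Polyadenylated RNA of the frontal cortex was sequenced from knock-in mice aged 20 months on the C57BL/6 background. In 10 homozygous (HOM) libraries both alleles of Tardbp, which encodes the RNA-binding protein TDP-43, carried Q331K, a substitution found in amyotrophic lateral sclerosis; in 10 heterozygous (HET) libraries 1 allele did, and in 8 wild-type (WT) libraries neither did. A knock-in places the change in the animal's own gene, so it is present in every cell type of the tissue. The labels give neither sex nor litter nor batch, and they leave unstated whether the libraries of a genotype are separate animals. P-values therefore refer to the spread among libraries, part of which may be technical.

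Potassium channels let potassium ions leave a neuron, which sets its resting potential, ends its action potentials and limits how fast it can fire. Voltage-gated (Kv) channels open on depolarization, inward rectifier (Kir) and two-pore-domain (K2P) channels act near rest, and other channels open on internal calcium or sodium. Pore-forming alpha subunits assemble into a channel, and beta, Kcne and Kcnmb proteins are accessory subunits that change how a pore opens or where it is placed. TDP-43 binds RNA at stretches rich in UG and takes part in the splicing and stability of many neuronal transcripts.

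HOM libraries held 30.5 to 62.6 M counts (M, 1e6), HET libraries 45.05 to 74.9 M and WT libraries 46.5 to 64.1 M. Markers of cortical excitatory neurons (8 genes such as Slc17a7) summed to at least 5152 CPM in every library, and choroid plexus markers to at most 12.5 CPM. Tardbp averaged 349.7 ± 18.4 CPM in HOM, 328 ± 13.6 CPM in HET and 320.4 ± 13.1 CPM in WT libraries (SD). Tardbp had a HOM over WT log2 fold change of 0.12 (SE 0.03, adjusted p = 0.0185 in edgeR), and its counts do not show which allele a read came from.

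The channel genes differed widely in level. In CPM divided by the exon length of the gene in kb, which makes genes of different length comparable, the highest was Kcnab2, a Kv beta subunit, at 82.9 CPM per kb. Kcna1, an axonal Kv1 channel, followed at 57.9, Kcnj4, a strong inward rectifier, at 43.9, and Kcnk1, a K2P channel, at 43.0 CPM per kb. Kcnj9, a G protein-gated inward rectifier (GIRK) subunit, stood at 38.4 and Kcnf1, an electrically silent Kv subunit that modifies other channels, at 32.9 CPM per kb. The lowest was the K2P gene Kcnk10, at 0.397 CPM per kb.

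In plain CPM, the 4 Kv7 genes held 18.5% of the counts of all 62 genes. The 3 Kv beta genes held 14.5%, the 9 Kir genes 12.2%, the 7 genes of the EAG, ERG and ELK group 12.2% and the 6 Kv1 genes 11.3%. The 8 silent Kv genes held 8.17%, the 3 genes of the sodium-activated Slack group with Slo3 5.66%, and the 9 K2P genes 5.3%. The Kv3 genes among the 62 held 4.58%, the calcium-activated BK group 3.38%, Kv2 2.32%, the SK group 1.5%, Kcnd1 of the Kv4 family 0.329% and the Kcne genes 0.0912%. The 62 genes together summed to 4218 ± 125 CPM in HOM, 4339 ± 58.4 CPM in HET and 4251 ± 81.8 CPM in WT libraries (SD).

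**Figure D1:**
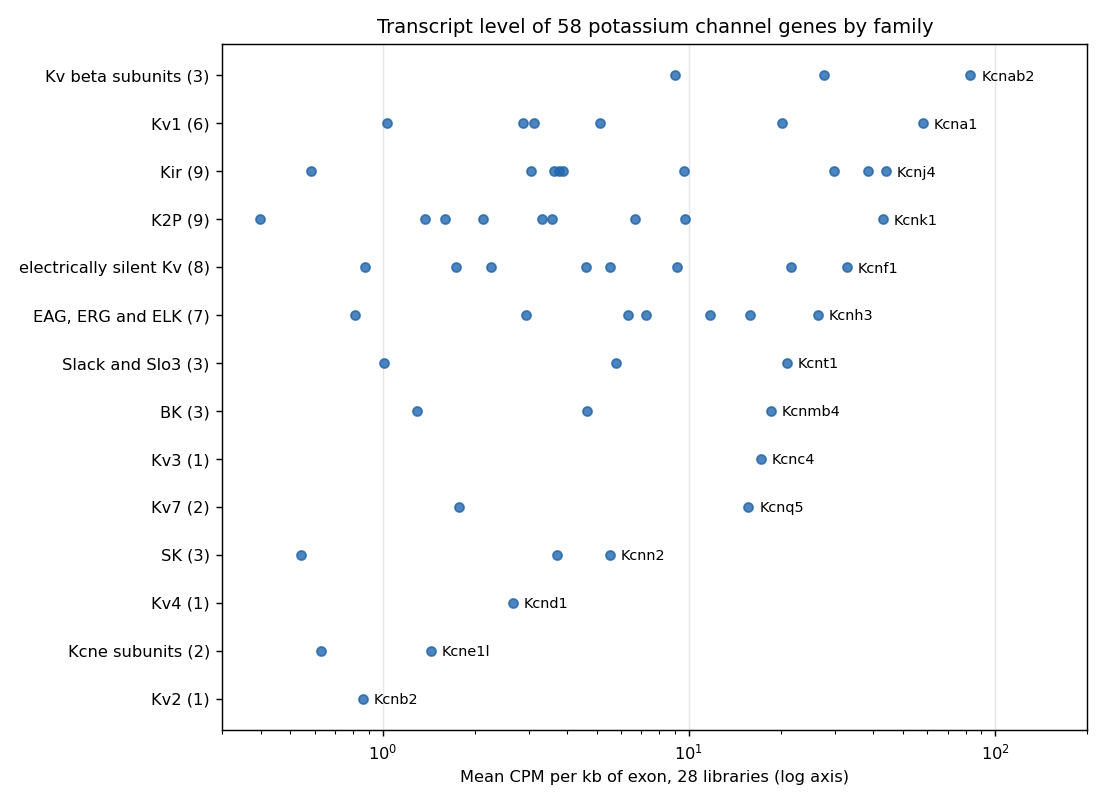
Mean level of 58 of the 62 potassium channel genes over 28 libraries, in CPM per kb of exon on a log axis, with 1 point per gene and 1 row per family (number of genes drawn in brackets). The highest gene drawn in each row is named, and Kcnab2 at 82.9 CPM per kb lies farthest to the right.

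Levels were steady between libraries for most of the genes. The coefficient of variation over the 28 libraries had a median of 8.76% among the 62 genes, against 7.67% among all genes tested. It was highest for Kcna5 (40.3%), Kcne4 (23.4%) and Kcnab3 (18.6%). Kcnab3, a Kv beta subunit, ran from 52.3 CPM (median 75.3, highest 93.2) in HOM, from 63.1 (median 84.95, highest 110) in HET and from 56.5 (median 74.4, highest 109) in WT libraries, so the ranges of the 3 genotypes overlapped over most of their width. WT 6, the WT library highest in Kcnab3, was the lowest WT library in Kcng1 (17.7 CPM) and Kcnf1 (128.5 CPM), both silent Kv genes.

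HOM against WT gave few differences among the channel genes, and those were small. Kcnh7, Kcnab1 and Kcnt2 were lower in HOM, at 0.883, 0.844 and 0.886 times the WT level, and no channel gene was higher at an adjusted p under 0.05 (edgeR quasi-likelihood test, Benjamini-Hochberg over 16110 genes). That is 3 of 62, or 4.84%, where 7.61% of all genes tested were called. Lower calls alone were 4.84% of the channel genes against 3.71% of all genes, and higher calls 0% against 3.9%. The median log2 fold change was -0.02 over the 62 genes and 0.01 over all genes, and 28 channel genes had a positive and 34 a negative sign. In bulk tissue, fewer cells of a type and less RNA per cell cannot be told apart.

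Kcnh7 (ENSMUSG00000059742, minus strand, chr2:62693414-63184287, GRCm38) encodes ERG3, a pore-forming channel of the ether-a-go-go related group. The HOM libraries ran from 154 CPM, with a median of 168.6, to 175 CPM, the HET libraries from 157 (median 182) to 203 CPM, and the WT libraries from 177 (median 188) to 212 CPM. Every HOM library lay below every WT library, while the HET libraries spread over both ranges, with 3 of 10 below the lowest WT library. Such a complete separation downwards held for 1 of the 62 genes (1.61%), against 0.18% of all genes tested, and the same separation upwards for 0 of 62, against 0.223%. Kcnh7 averaged 167 ± 6.31 CPM in HOM and 189 ± 11.8 CPM in WT libraries (SD, n = 10 and 8), a log2 fold change of -0.18 (SE 0.04, adjusted p = 0.00891, edgeR).

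Exons of Kcnh7 overlap those of Gca on the other strand over 696 bases in GENCODE vM21, and the strand setting of the counting is not given in the sources used here, so reads there cannot be told apart. Gca itself averaged 20.4 ± 1.19 CPM in HOM and 20.3 ± 1.9 CPM in WT libraries (SD), and its log2 fold change was 0.01 (SE 0.04, adjusted p = 0.95, edgeR).

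The promoter of Kcnh7, and the stretch of its transcript nearest in letters to a UG repeat, are shown because Kcnh7 had the smallest p of the channel genes. The RefSeq promoter window (chr2:63184238-63184537, minus strand, GRCm38.p6) spans 250 bases before the start to 50 after it. Its capitals mark GC boxes (GGGCGG or, on the other strand, CCGCCC) and CCAAT boxes (CCAAT or ATTGG), and the TATA box letters TATAAA or TTTATA were searched too. The transcript stretch (chr2:62696443-62696472, minus strand, GRCm38, GENCODE vM21) lies in the 3′ UTR, and its capitals mark the longest run of alternating T and G, 8 bases long.
Kcnh7 promoter: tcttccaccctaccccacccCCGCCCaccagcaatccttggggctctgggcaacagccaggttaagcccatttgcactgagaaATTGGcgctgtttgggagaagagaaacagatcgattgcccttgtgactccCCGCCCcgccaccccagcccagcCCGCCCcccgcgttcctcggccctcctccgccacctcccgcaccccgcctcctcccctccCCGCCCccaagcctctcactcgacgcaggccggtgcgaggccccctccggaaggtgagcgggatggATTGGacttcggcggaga
Kcnh7 3′ UTR: cagaaaagaaaTGTGTGTGatcccttgaaa
The Kcnh7 window held 4 matches to a GC box, 2 to a CCAAT box and 0 to a TATA box. A GC box occurred in 35.7%, a CCAAT box in 37.4% and a TATA box in 13.6% of 32851 RefSeq promoter windows of this length. Among the 54 windows listed for 40 of the channel genes the shares were 50%, 25.9% and 5.56%. The run TGTGTGTG, read on the transcript strand of the longest protein-coding transcript, was found in 17 of the 62 channel genes (27.4%) and in 25.9% of 14879 tested genes. Of the genes lower in HOM, Kcnh7 held it, and Kcnab1 and Kcnt2 did not.

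Kcnab1 (ENSMUSG00000027827, plus strand, chr3:65109384-65378223, GRCm38) encodes Kv beta 1, an accessory subunit that speeds the inactivation of Kv1 channels. The HOM libraries ran from 66.6 CPM, with a median of 69.6, to 88.1 CPM, the HET libraries from 68.6 (median 74.8) to 79.9 CPM, and the WT libraries from 78.5 (median 83.1) to 111 CPM. HOM and HET lay alike here: 8 of 10 HOM libraries and 8 of 10 HET libraries were below the lowest WT library. Kcnab1 averaged 72.9 ± 7.85 CPM in HOM and 86.2 ± 10.7 CPM in WT libraries (SD), a log2 fold change of -0.24 (SE 0.06, adjusted p = 0.0149, edgeR). The HET mean was 74.9 ± 4.01 CPM and the HET over WT log2 fold change -0.20 (adjusted p = 0.366, edgeR), which did not pass the test.

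Within each genotype the 2 libraries highest in striatal neuron markers were also the 2 highest in Kcnab1. The 11 striatal markers tested, such as Ppp1r1b and Drd2, summed to between 445 and 922 CPM in HOM (median 611), between 451 and 655 CPM in HET (median 477) and between 399.7 and 1074 CPM in WT libraries (median 485). HOM 6 and HOM 5, with marker sums of 922 and 909 CPM, held 84.1 and 88.1 CPM of Kcnab1, the highest HOM values. HET 4 and HET 5, at 655 and 620 CPM of markers, held 79.8 and 79.9 CPM of Kcnab1, and WT 3 and WT 4, at 1074 and 901 CPM of markers, held 111 and 87.5 CPM. Below these, HOM 4 and WT 8 ranked 3 in both, but the order was not kept throughout. HET 3, ranked 3 of 10 in markers (536 CPM), was the lowest HET library in Kcnab1 (68.6 CPM). HOM 10, ranked 4 of 10 in markers (672 CPM), was the lowest HOM library in Kcnab1 (66.6 CPM). None of the 11 markers was called in HOM against WT. With scores for striatal, meningeal and choroid plexus markers as covariates, the log2 fold change of Kcnab1 was -0.25 (SE 0.05, adjusted p = 0.00439, edgeR).

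**Figure D2:**
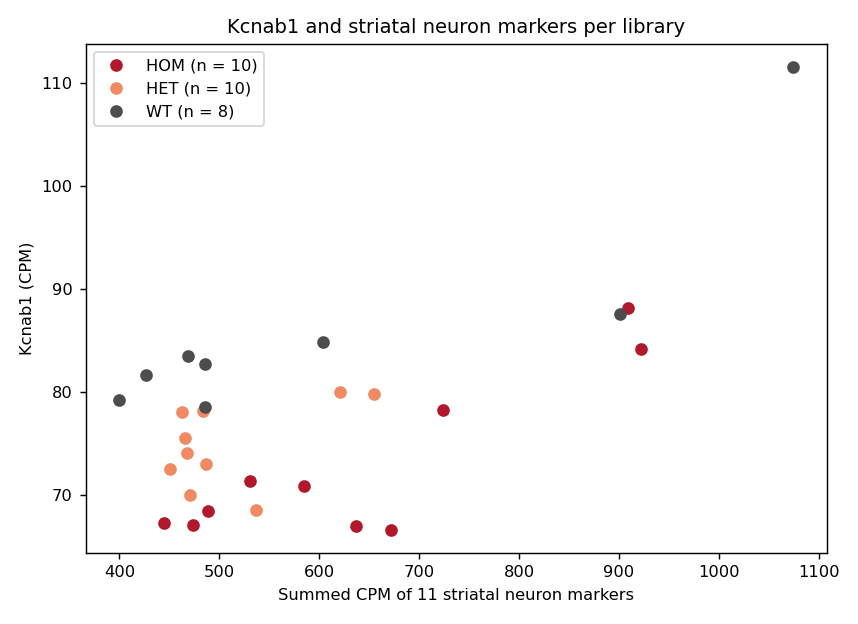
Kcnab1 level in CPM against the summed CPM of 11 striatal neuron markers, with 1 point per library and colour for genotype (HOM, HET, WT). WT 3 lies at the upper right with 1074 CPM of markers and 111 CPM of Kcnab1, and HOM 5 and HOM 6, at 909 and 922 CPM of markers, are the HOM points that reach into the WT range of Kcnab1.

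The RefSeq table lists 3 starts of Kcnab1, and the window shown (chr3:65108764-65109063, plus strand, GRCm38.p6) is that of the start nearest to the first base of the gene in the deposited table. That start lies 370 bases before this first base. The window held 0 GC boxes, 0 CCAAT boxes and 0 TATA boxes, so no letters are in capitals.
Kcnab1 promoter: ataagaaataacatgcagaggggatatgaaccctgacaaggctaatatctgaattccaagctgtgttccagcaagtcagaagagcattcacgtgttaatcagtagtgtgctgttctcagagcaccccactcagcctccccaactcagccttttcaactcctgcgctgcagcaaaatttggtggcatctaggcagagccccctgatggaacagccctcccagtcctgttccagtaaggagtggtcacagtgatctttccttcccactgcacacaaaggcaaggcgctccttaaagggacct

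Kcnt2 (ENSMUSG00000052726, plus strand, chr1:140246216-140612063, GRCm38) encodes Slick, a sodium-activated potassium channel and the close relative of Slack (Kcnt1). The HOM libraries ran from 33.4 CPM, with a median of 38.2, to 40.3 CPM, the HET libraries from 34.5 (median 40.96) to 43.4 CPM, and the WT libraries from 40.2 (median 42.0) to 47.3 CPM. HOM and WT met at their edges, with 9 of 10 HOM libraries below the lowest WT library, and 4 of 10 HET libraries lay below it. Kcnt2 averaged 37.7 ± 2.26 CPM in HOM and 42.4 ± 2.28 CPM in WT libraries (SD), a log2 fold change of -0.17 (SE 0.04, adjusted p = 0.0166, edgeR). Its RefSeq promoter window (chr1:140245468-140245767, plus strand, GRCm38.p6) held 2 CCAAT boxes, in capitals on the other strand as ATTGG, and 0 GC boxes. The RefSeq start of Kcnt2 lies 498 bases before the first base of the gene in the deposited table.
Kcnt2 promoter: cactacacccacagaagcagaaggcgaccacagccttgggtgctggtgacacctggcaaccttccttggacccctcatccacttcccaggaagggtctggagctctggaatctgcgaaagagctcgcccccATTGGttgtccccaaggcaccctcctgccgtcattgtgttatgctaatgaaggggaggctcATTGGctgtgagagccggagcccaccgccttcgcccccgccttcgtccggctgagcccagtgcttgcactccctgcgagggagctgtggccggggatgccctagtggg

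Kcnh7 and Kcnt2 each peaked in WT 6, at 212 and 47.3 CPM, the library lowest in the sum of 12 meningeal fibroblast markers (53.8 CPM) and ranked 2 of 8 WT libraries in the sum of 10 fast-spiking interneuron markers (802 CPM). The other genotypes did not keep to one order with the meningeal markers. Both genes were highest of HET in HET 7, at 203 and 43.4 CPM, which ranked 2 of 10 in meningeal (121 CPM) and 1 of 10 in fast-spiking markers (759.9 CPM). HOM 7, lowest of HOM in meningeal markers (68.5 CPM), was highest in Kcnh7 (175 CPM), but HOM 3, highest in meningeal markers (228.5 CPM), ranked 3 of 10 in Kcnh7 (172 CPM) and 7 of 10 in Kcnt2 (36.8 CPM). In HET the ranks of Kcnh7 mostly lay near those of the fast-spiking markers. Ranked 1 to 5 in these markers, HET 7, HET 2, HET 6, HET 8 and HET 4 ranked 1, 3, 4, 2 and 7 in Kcnh7. Ranked 6 to 10 in these markers, HET 5, HET 10, HET 3, HET 1 and HET 9 ranked 6, 10, 8, 5 and 9 in Kcnh7. Neither WT nor HOM kept to such an order throughout. WT 3, highest of WT in fast-spiking markers (829.7 CPM), ranked 7 of 8 in Kcnh7 (178 CPM) and 5 of 8 in Kcnt2 (41.5 CPM). WT 3 was also highest of WT in striatal markers (1074 CPM), and the fast-spiking and striatal lists share Tac1. HOM 1, highest of HOM in fast-spiking markers (711 CPM), ranked 9 of 10 in Kcnt2 (34.8 CPM). The meningeal markers summed to between 68.5 and 228.5 CPM in HOM (median 106) and between 53.8 and 104 CPM in WT libraries (median 79.03), and 2 of 12 (Col1a1 and Igfbp2) were called higher in HOM. With the 3 neighbouring tissue scores as covariates the log2 fold changes were -0.14 for Kcnh7 (adjusted p = 0.0959, edgeR) and -0.13 for Kcnt2 (adjusted p = 0.154, edgeR), which no longer passed the test. Without WT 6 and HOM 3 that of Kcnt2 was -0.15 (adjusted p = 0.0696, edgeR). The 10 fast-spiking interneuron markers summed to between 584.5 and 711 CPM in HOM (median 631) and between 679.5 and 829.7 CPM in WT libraries (median 745), with 3 of 10 called lower in HOM (Pvalb, Erbb4, Gad1). None of the 8 excitatory neuron and 10 oligodendrocyte markers was called. Called higher in HOM were 7 of 12 microglia, 5 of 9 oligodendrocyte precursor, 4 of 10 mural, 3 of 10 endothelial, 3 of 10 astrocyte and 2 of 9 other interneuron markers, and microglia markers summed to between 543.5 and 695.7 CPM in HOM and between 490.1 and 576.3 CPM in WT libraries. The part of these cell types in the channel results was not tested.

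**Figure D3:**
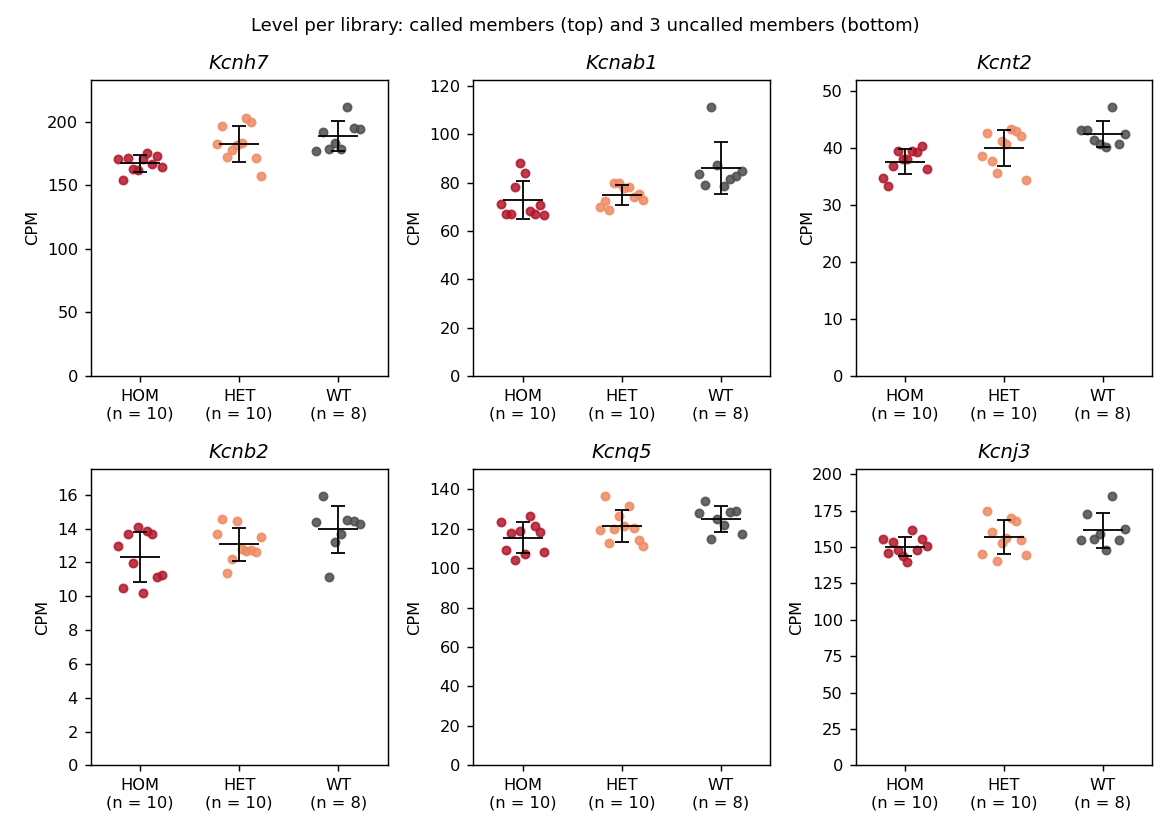
CPM per library for the 3 genes lower in HOM (top row) and 3 of the uncalled genes with the smallest p in HOM against WT (bottom row), in HOM (n = 10), HET (n = 10) and WT (n = 8) libraries. Points are libraries and bars are the mean ± SD. For Kcnh7 every HOM point lies below every WT point and for Kcnj3 the ranges of HOM and WT points overlap.

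The 3 genes lower in HOM were also set against a related gene of the same library, as a ratio that does not depend on how libraries are scaled. The ratios were chosen because these genes were called in the same libraries, so they are a description with no test. The counts of Kcnt2 per count of Kcnt1 averaged 0.187 ± 0.0236 in HOM, 0.199 ± 0.0169 in HET and 0.226 ± 0.0164 in WT libraries (SD), with 9 of 10 HOM libraries below the lowest WT library. Both genes enter this ratio: its HOM minus WT log2 difference was -0.28, where Kcnt2 alone had -0.17 and Kcnt1, not called, 0.11. The ratio of Kcnh7 to its relative Kcnh2 averaged 5.54 ± 0.419 in HOM and 6.24 ± 0.496 in WT libraries, with 5 of 10 HOM libraries below every WT library. The ratio of Kcnab1 to Kcnab2 averaged 0.161 ± 0.0257 in HOM and 0.189 ± 0.0235 in WT libraries, with 7 of 10 HOM libraries below every WT library.

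No Kv7 gene passed the test over all libraries in edgeR. Kcnq5, a subunit of the M-current that restrains repetitive firing, had 115 ± 7.7 CPM in HOM and 125 ± 6.55 CPM in WT libraries, a log2 fold change of -0.12 (adjusted p = 0.0923, edgeR), and it passed without HOM 7 (adjusted p = 0.0439, edgeR) and in limma (adjusted p = 0.0442). Kcnq3, another M-current subunit, had 25.6 ± 1.73 CPM in HOM and 26.1 ± 1.59 CPM in WT libraries (log2 fold change -0.03).

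Of the remaining Kv families, the Kv2 gene Kcnb2 had 12.3 ± 1.5 CPM in HOM and 13.95 ± 1.37 CPM in WT libraries (log2 fold change -0.18, adjusted p = 0.0906, edgeR), and without WT 3 the log2 fold change was -0.23 (adjusted p = 0.0366, edgeR). The 6 Kv1 genes, which include the axonal channels Kcna1 and Kcna2, had log2 fold changes from -0.10 to 0.14 and a smallest adjusted p of 0.179 (edgeR). Kcnd1 of the A-current family had 14.4 ± 1.38 CPM in HOM and 13.8 ± 1.03 CPM in WT libraries (log2 fold change 0.05). The 8 silent Kv genes, which form channels only together with other Kv subunits, ran from -0.17 to 0.12 with a smallest adjusted p of 0.248 (edgeR), and Kcnf1 stood at 0.05. Kcnab2 and Kcnab3, the Kv beta genes beside Kcnab1, had log2 fold changes of -0.01 and -0.05.

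Among channels that act near rest, Kcnj3, the GIRK subunit that pairs with Kcnj9 or Kcnj6, had 150 ± 6.52 CPM in HOM and 161 ± 12.1 CPM in WT libraries (log2 fold change -0.11, adjusted p = 0.11, edgeR). Kcnj9 had a log2 fold change of -0.06 and Kcnj6 of 0.05, so the 3 GIRK subunits did not share a sign. The 9 Kir genes ran from -0.11 to 0.12, and the 9 K2P genes from -0.07 to 0.11 with Kcnk1 at 97.7 ± 8.44 CPM in HOM and 91.6 ± 4.51 CPM in WT libraries (log2 fold change 0.09). None passed the test.

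Among channels gated by calcium or sodium, Kcnt1 had 203 ± 16.7 CPM in HOM and 188 ± 13.7 CPM in WT libraries (log2 fold change 0.11, adjusted p = 0.122, edgeR), the sign opposite to that of Kcnt2. Without HOM 8 it was 0.14 (adjusted p = 0.0232, edgeR). Kcnma1, the BK pore, had 77.2 ± 3.65 CPM in HOM and 79.2 ± 3.97 CPM in WT libraries (log2 fold change -0.04), and Kcnmb2, a BK accessory subunit, 3.83 ± 0.208 CPM in HOM and 4.26 ± 0.473 CPM in WT libraries (log2 fold change -0.15, adjusted p = 0.129, edgeR). The 3 SK genes, whose channels carry part of the afterhyperpolarization that follows spikes, had log2 fold changes from 0.03 to 0.14, with Kcnn2 at 0.11. Kcne1l, an accessory subunit gene near the 1 CPM limit set for the channel genes, had 2.41 ± 0.312 CPM in HOM and 2.02 ± 0.462 CPM in WT libraries (log2 fold change 0.25, adjusted p = 0.158, edgeR).

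A missed threshold does not show that levels were equal, and the intervals set the bounds. Of the 59 genes not called in HOM against WT, 44 had a 95% normal interval of the log2 fold change that lay within a 1.2-fold change in either direction. Of all 62 genes 46 did, the called gene Kcnh7 among them. A bound of that width therefore does not set uncalled genes apart from called ones. The widest interval was that of Kcna5, from -0.33 to 0.61 on the log2 scale. Kcna5 also has a doubtful feature in the deposited table: its span there is 165.6 kb and encloses Kcna1, against 2.86 kb in GENCODE vM21.

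**Figure D4:**
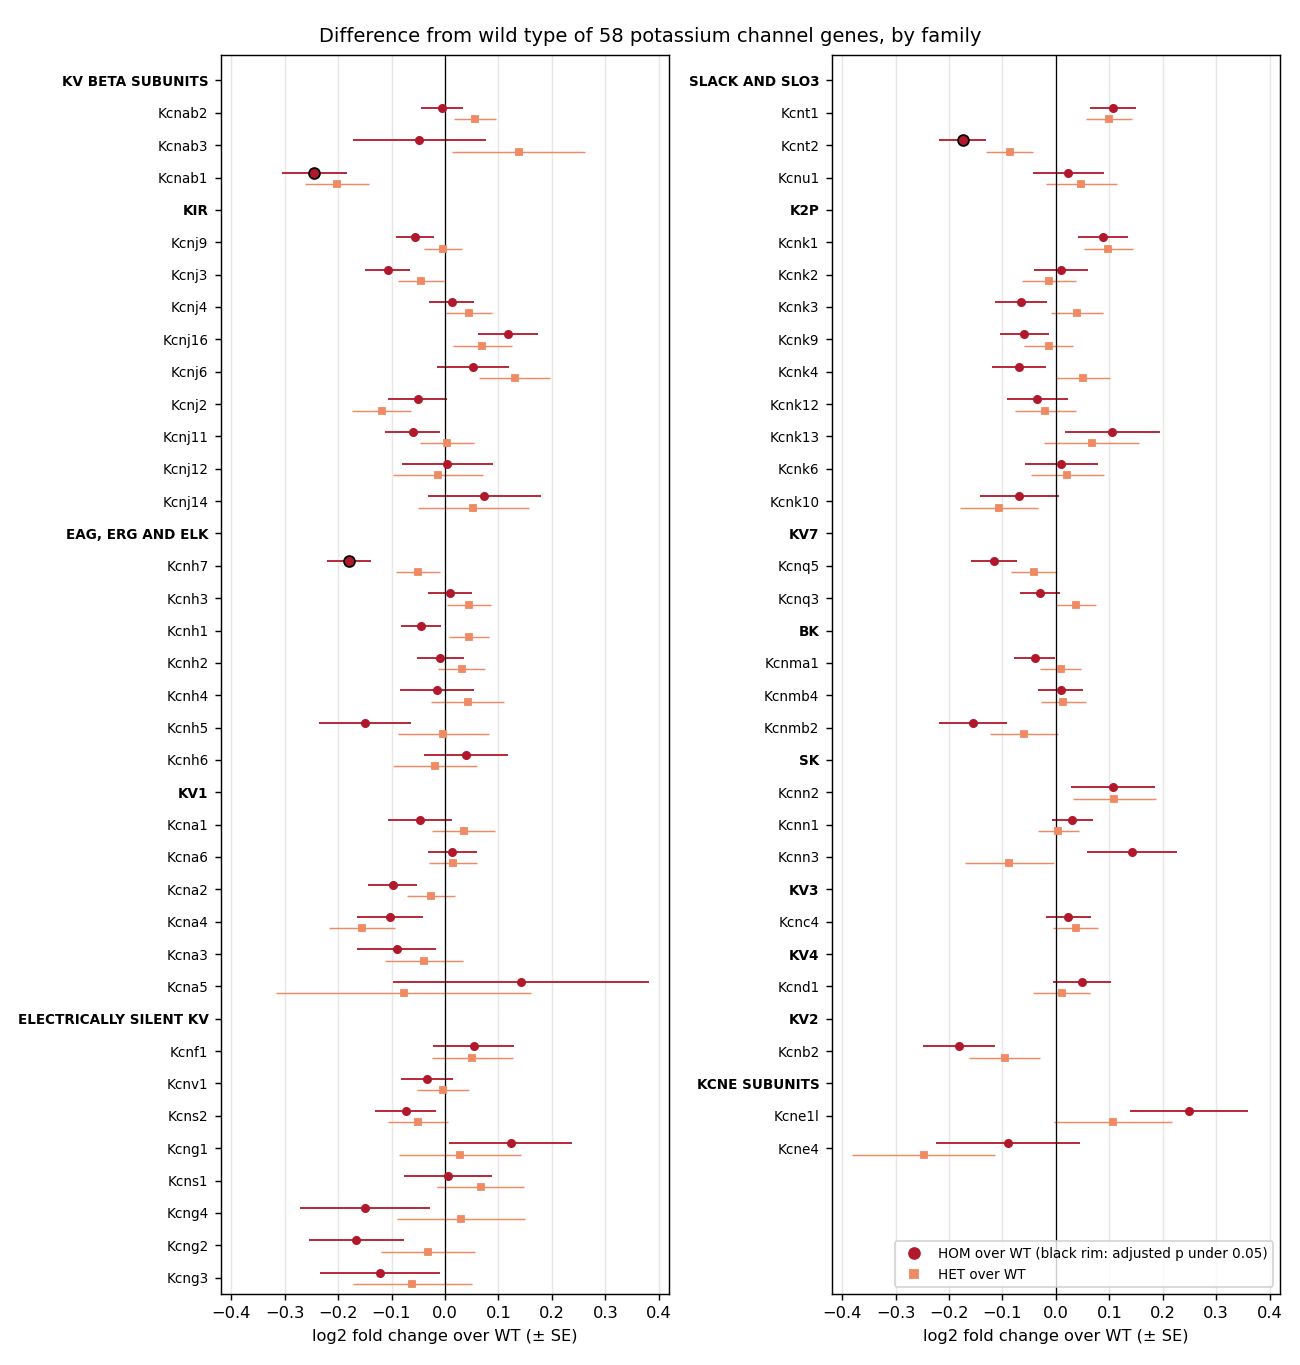
Log2 fold change over WT with its SE for 58 of the 62 genes, grouped by family, as circles for HOM and squares for HET; a black rim marks an adjusted p under 0.05. Kcnab1 (-0.24), Kcnh7 (-0.18) and Kcnt2 (-0.17) are the circles with a rim, and no square has one.

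In HET against WT no channel gene was called, and neither was any other gene (0% of 16110, edgeR; 12 genes by DESeq2 and 14 by limma, none of them a channel gene). At an unadjusted p under 0.05 there were 5 channel genes (8.06%), against 9.6% of all genes, in edgeR and 8 (12.9%, against 14.2%) in limma. In DESeq2 there were 5 (8.06%), against 8.35% of all genes with a count, which include the low genes that edgeR filtered out. Kcnab1 had the smallest p of the 5 channel genes in edgeR, at the log2 fold change of -0.20 given above. The HET log2 fold changes were -0.05 for Kcnh7 and -0.09 for Kcnt2. Of the other 4, 2 were lower in HET and 2 higher, and none passed the adjusted test. Kcna4, a rapidly inactivating Kv1 channel, had 14.5 ± 1.15 CPM in HET and 16.1 ± 1.98 CPM in WT libraries (log2 fold change -0.16), and Kcnj2, a strong inward rectifier, 20.3 ± 1.88 CPM in HET and 22.03 ± 1.1 CPM in WT libraries (log2 fold change -0.12). Kcnk1 had 98.2 ± 5.9 CPM in HET and 91.6 ± 4.51 CPM in WT libraries (log2 fold change 0.10), and Kcnt1 201.5 ± 7.97 CPM in HET and 188 ± 13.7 CPM in WT libraries (log2 fold change 0.10). HET and HOM share the WT libraries, so their values over WT are not independent.

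HOM against HET, which does not use the WT libraries, called 0 of 62 channel genes and 6 genes in all (0.0372%, with 0.0124% higher and 0.0248% lower, edgeR; 49 by DESeq2 and 42 by limma, none a channel gene). At an unadjusted p under 0.05 there were 7 channel genes (11.3%), against 8.54% of all genes, in edgeR and 17 (27.4%, against 12.2%) in limma. In DESeq2 there were 7 (11.3%), against 7.27% of all genes with a count, a wider set that includes low genes. The smallest p of the channel genes in edgeR was that of Kcnh7, at 167 ± 6.31 CPM in HOM and 182 ± 14.3 CPM in HET libraries, a log2 fold change of -0.13 (adjusted p = 0.293, edgeR). That of Kcnt2 was -0.09 and that of Kcnab1 -0.04.

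A slope on the number of Q331K alleles (0, 1, 2) called the same genes, 3 of 62 or 4.84%, against 7.78% of all genes (lower 4.84% against 3.79%, higher 0% against 3.99%). Per allele the log2 level changed by -0.09 for Kcnh7 (SE 0.02, adjusted p = 0.0077), by -0.12 for Kcnab1 (SE 0.03, adjusted p = 0.0179) and by -0.09 for Kcnt2 (SE 0.02, adjusted p = 0.0141, edgeR). The slope uses the same HOM and WT libraries and is no independent evidence. A departure from a straight line over 0, 1 and 2 alleles passed for 0 channel genes and 0 genes in all (edgeR, DESeq2 and limma). At an unadjusted p under 0.05 there were 2 channel genes in edgeR (3.23%, against 2.83% of all genes) and 10 in limma (16.1%, against 6.9%). In DESeq2 there were 4 (6.45%), against 2.64% of all genes with a count, again the wider set.

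The genes lower in HOM were all long. Kcnh7 spans 490.9 kb, Kcnt2 365.8 kb and Kcnab1 268.8 kb in the deposited table, where the median span of the 62 genes was 36.3 kb and that of all genes tested 22.6 kb. Of 12 channel genes of 200 kb or more, 3 were called lower (25%), against 9.69% of 908 genes that long and 3.71% of all genes. The other 9 were Kcnq5, Kcnma1, Kcnb2, Kcnn2, Kcnh1, Kcnmb2, Kcnq3, Kcnh5 and Kcnj6, and of all 12, 10 had a negative sign (83.3%, against 57.7% of all genes that long). Their median log2 fold change was -0.13, against -0.02 over all genes that long. Negative signs were also frequent among the shortest channel genes: 11 of 15 under 10 kb (73.3%, against 40.3% of all genes that short), with a median of -0.06 against 0.02. Between these ends, 8 of 19 channel genes of 10 to 50 kb, 3 of 11 of 50 to 100 kb and 2 of 5 of 100 to 200 kb had a negative sign. The 100 to 200 kb range counts Kcna5, with a positive sign, by its doubtful span in the deposited table (165.6 kb, against 2.86 kb in GENCODE vM21). None of the 50 shorter channel genes was called. Spearman's rho between span and log2 fold change was -0.07 over the 62 genes and -0.11 over all genes tested, given as descriptions across genes that share their libraries. The 200 kb limit was chosen with results known, so it is a description with no test.

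**Figure D5:**
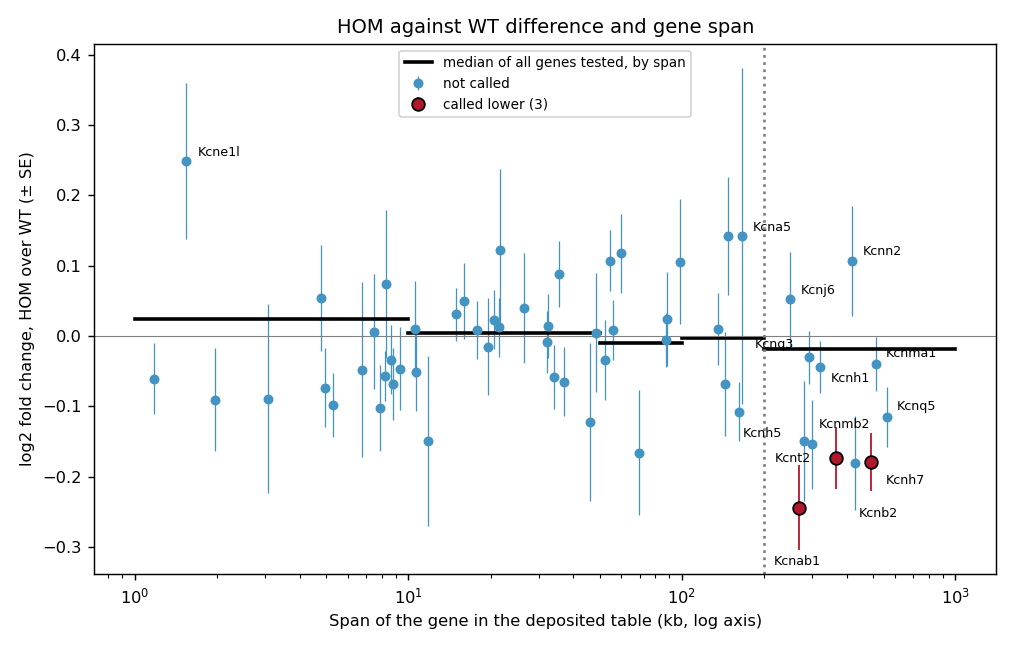
Log2 fold change of HOM over WT (± SE) against the span of the gene in kb on a log axis for 58 of the 62 genes; the dotted line marks 200 kb and black lines the median of all genes tested in each span range. Right of the dotted line 10 of 12 channel genes lie below 0, among them Kcnh7, Kcnt2 and Kcnab1 in red. Kcna5 is drawn at its doubtful span of 165.6 kb in the deposited table.

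Genes whose products work with potassium channels were counted from lists. Of 93 tested partner genes, 2 were higher and 4 lower in HOM against WT (6.45%, against 7.61% of all genes), with a median log2 fold change of -0.02. Among 22 genes that cluster or anchor Kv1 and Kv2 channels, Cntnap2, which holds Kv1 channels beside the node of Ranvier, was lower, at 82.3 ± 4.55 CPM in HOM and 90.7 ± 3.18 CPM in WT libraries (log2 fold change -0.14, adjusted p = 0.00648, edgeR). Among 16 other subunits and binding partners, Dpp10, an auxiliary subunit of Kv4 channels, was lower at 167 ± 10.2 CPM in HOM and 186 ± 11 CPM in WT libraries (log2 fold change -0.16, adjusted p = 0.0214, edgeR). Cacnb4, counted in this list although it encodes a calcium channel beta subunit, was lower by a log2 fold change of -0.13 (adjusted p = 0.0493, edgeR).

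Of 30 receptors, G proteins and regulators that act on GIRK channels, Gnai1 was lower (log2 fold change -0.10, adjusted p = 0.0293, edgeR) and Gnai2, another inhibitory G protein alpha subunit, higher (log2 fold change 0.10, adjusted p = 0.0494, edgeR). Of 20 genes of the sodium-potassium pump and the cation-chloride cotransporters, Slc12a4, a potassium-chloride cotransporter, was higher at 22.3 ± 1.46 CPM in HOM and 19.8 ± 0.703 CPM in WT libraries (log2 fold change 0.17, adjusted p = 0.00451, edgeR), with 9 of 10 HOM libraries above the highest WT library. None of the 5 genes of the HCN group, the cation channels that oppose resting potassium currents, passed the test. With the 3 neighbouring tissue scores as covariates 0 of the 93 partner genes were called. Without WT 6 there were 2, Cntnap2 and Slc12a4, and without HOM 2, HOM 10 or WT 2 there were 3, these and Dpp10.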

How the data were processed

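Raw read counts per gene, whole numbers as the authors deposited them, were used for 28 polyA RNA-seq libraries. The submitters' processing notes name Trim Galore 0.4.3, HISAT2 2.0.5 and GRCm38. The kit was stranded, per the labels' protocols; how reads were counted, with which annotation and strand setting, is not given in the sources used here. Rows were summed per identifier (57 identifiers filled 122 rows). CPM were computed as counts over the library total. Exon lengths and overlaps came from GENCODE vM21, promoters from RefSeq (GRCm38.p6).

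In edgeR 4.0.16 (R 4.3.3), genes passing filterByExpr (16110, all 62 channel genes among them) were scaled by TMM and fitted in 1 quasi-likelihood model of the 28 libraries, with 1 mean for each genotype; contrasts were two-sided, adjusted by Benjamini-Hochberg over all genes, with 0.05 as the threshold. A second model tested the slope on 0, 1 and 2 alleles. The depth of 30.5 to 74.9 M reads and a biological coefficient of variation of 8.46% set the precision. The fit was tested on simulated counts. No library pair of 378 agreed within sampling noise (lowest chi-square per degree of freedom 6.7). Alternatives were DESeq2 1.42.0, limma 3.58.1 (voom with quality weights), other filters and scalings, neighbouring tissue scores as covariates, the replicate number as a block, and single libraries left out.

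The members, the lists and the rule for named genes (called genes, the highest gene of each family, the 6 uncalled genes with the smallest p, the 3 most variable, and those at the limit; other genes were named after their values were seen) were chosen with earlier results of these data known. A few genes are not reported here, and the figures leave them out.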

Additional observations from a re-analysis of the deposited data

Results flagged for a closer look

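In 5 of 75 groups of values checked, 1 library stood far from the others of its genotype by Dixon's criterion, which chance meets in about 1 in 20 groups not picked by their spread. Kcna5 and Kcne4 were named for their large spread, so that rate does not apply to them. Kcna5 had 7.46 CPM in WT 4, against 3.25 CPM in the next WT library, and without WT 4 its HOM over WT log2 fold change was 0.50, against 0.14 with it. Kcnab1 had 111 CPM in WT 3, against 87.5 CPM in the next. Kcne4 had 3.29 CPM in WT 2, against 1.81 CPM in the next. Kcnt2 had 47.3 CPM in WT 6, against 43.2 CPM in the next. Kcnn2 had 29.9 CPM in HOM 10, the lowest HOM library, against 40.1 CPM in the next. Without WT 3 the log2 fold change of Kcnab1 was -0.19, and without WT 6 that of Kcnt2 was -0.15, both still called.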

How the results depend on the processing

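Kcnh7, Kcnab1 and Kcnt2 kept their calls in HOM against WT in all 28 fits that left out 1 library, with the highest adjusted p for Kcnt2 without WT 6 (0.0495, edgeR). No result changed sign among those called. The number of channel genes called ran from 3 to 5 over these fits in HOM against WT and in the slope; it was 5 without HOM 8, with Kcnt1 among those added. The number higher ran from 0 to 2 and the number lower from 3 to 4, with Kcnq5 added without HOM 7 and Kcnb2 without WT 3. DESeq2 called 1 gene higher, and limma added Kcnq5. With the 3 neighbouring tissue scores as covariates 1 channel gene was called in HOM against WT and in the slope, Kcnab1, lower; the cause was not tested. Partner genes called numbered 12 by DESeq2, 10 by limma, 0 with the covariates, 2 without WT 6 and HOM 3, and from 2 (without WT 6) to 9 (without HOM 9) over the single libraries left out, with 3 without HOM 2, HOM 10 or WT 2. All genes called numbered 259 with the covariates, 737 with the replicate number as a block, 595 without WT 6 and 509 without WT 6 and HOM 3. Replicate numbers paired the libraries weakly at most: the correlation of deviations of same-numbered HOM and WT libraries ran from -0.158 to 0.126, with 1 of 8 over 0.1. It ran from -0.164 to 0.134 for HOM and HET, with 3 of 10 over 0.1. For HET and WT it ran from -0.0476 to 0.183, with 1 of 8 over 0.1. The block called 3 channel genes, the same ones. Depth limits the genes near 1 CPM most, with 45 to 146 counts per library for Kcnj14 and 48 to 211 for Kcne4.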
